A study of Mus musculus with 48 samples.

Results

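The major histocompatibility complex (MHC) of the mouse lies on chromosome 17, and it was examined here through every methylation locus of the deposited count table in a window of 2300 kb from the gene Daxx before the H2-K genes to the H2-T genes (first locus start 33910910, last locus end 36195660, GRCm38 assembly). By this rule, which used position alone, 342 of the 187695 loci of the table were chosen. The loci were measured in genomic DNA from the amygdala of male mice labelled C57BL/6 (bred, by the study's methods, from a line backcrossed to C57BL/6N) at 4 months of age by MBD-seq, in which sheared DNA bound to a methyl-CpG-binding domain (MBD) protein is sequenced, so that a higher count stands for more captured methylated DNA. Mice were Tph2+/+, Tph2+/- or Tph2-/-, that is with both, 1 or no working copy of the gene for the enzyme that makes serotonin in neurons, and the litters had either been kept apart from their mother for 3 h daily between postnatal days 2 and 15 (maternal separation, MS) or not (C). Each of the 3 genotypes was thus studied with and without MS, giving 6 groups of 8 mice with 1 library per mouse. Inactivation of Tph2 was constitutive and so not limited to the adult amygdala. The tissue was a powder of both amygdalae, so that a mixture of cell types was measured, and a change in methylation cannot be told apart from a change in the share of a cell type. Captured DNA holds no marker transcripts, and the labelled tissue was not checked against them.

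The MHC holds the genes of the class I and class II molecules, which present peptides to T cells, together with the genes that prepare those peptides and, between the class I and class II blocks, the class III genes for complement factors, cytokines and many proteins with no role in immunity. The mouse H2 genes of class I lie at both ends of the complex, as H2-K at one end and the H2-D, H2-Q and H2-T genes at the other, and arose by repeated duplication. In the brain, class I molecules are expressed by neurons and glia and have been linked to synapse remodelling, whereas class II molecules are found chiefly on microglia and other myeloid cells. In adult mammalian tissue most CpGs are methylated, and dense clusters of CpGs at the starts of broadly expressed genes are usually free of methylation.

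A pair of contrasts in sequence shows which stretches of the MHC gave a locus and which gave none. Each of the next 4 sequences holds the 250 bases before a gene's start as given by RefSeq on GRCm38, written 5′ to 3′ on the strand of the gene, with every CpG in capitals. The stretch before a start of Pou5f1, a transcription factor of pluripotent cells, and that of Lta, the cytokine lymphotoxin alpha, lay entirely inside a locus. Another RefSeq start of Pou5f1 (promoter chr17:35508557-35508856) overlapped no locus and is not shown. The start of H2-K1, a classical class I gene, and that of Tnf, the cytokine tumour necrosis factor, lay outside all loci, the nearest being 5063 and 74 bp away.
Pou5f1 (chr17:35505782-35506031, plus strand): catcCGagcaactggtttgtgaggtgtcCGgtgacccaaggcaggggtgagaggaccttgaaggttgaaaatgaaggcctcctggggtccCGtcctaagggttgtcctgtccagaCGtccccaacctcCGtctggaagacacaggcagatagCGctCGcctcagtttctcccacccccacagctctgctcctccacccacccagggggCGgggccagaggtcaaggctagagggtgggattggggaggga
Lta (chr17:35205352-35205601, minus strand): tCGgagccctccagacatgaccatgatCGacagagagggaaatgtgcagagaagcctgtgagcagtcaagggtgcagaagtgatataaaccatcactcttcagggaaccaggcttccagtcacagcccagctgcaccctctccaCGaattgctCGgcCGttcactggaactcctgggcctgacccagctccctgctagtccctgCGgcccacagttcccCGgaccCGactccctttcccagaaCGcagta
H2-K1 (chr17:34000334-34000583, minus strand): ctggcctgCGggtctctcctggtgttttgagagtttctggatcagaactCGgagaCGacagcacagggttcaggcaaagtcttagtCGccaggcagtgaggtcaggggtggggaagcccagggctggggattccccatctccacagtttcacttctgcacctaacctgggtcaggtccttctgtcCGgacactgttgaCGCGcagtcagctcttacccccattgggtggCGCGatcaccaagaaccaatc
Tnf (chr17:35202008-35202257, minus strand): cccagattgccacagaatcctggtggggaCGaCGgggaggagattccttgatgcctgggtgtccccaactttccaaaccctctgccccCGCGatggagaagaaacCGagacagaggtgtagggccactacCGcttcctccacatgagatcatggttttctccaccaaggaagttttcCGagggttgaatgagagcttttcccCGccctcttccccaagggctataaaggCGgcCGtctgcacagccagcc
The Pou5f1, Lta, H2-K1 and Tnf stretches held 8, 9, 9 and 10 CpGs. With numbers so alike, these 4 cannot show whether CpG number separates starts with a locus from those without one. All promoters of the window are counted by CpG number below. The Pou5f1 locus (chr17:35505345-35506063) had a level of 2.1 CPM per kb of width (CPM, normalised counts per 1000000) and the Lta locus (chr17:35204879-35205874) one of 2.58 CPM per kb, both below the median of the MHC loci. These starts, and the loci at Hspa1a and Hspa1b and the locus without a CpG given later, were chosen after their values were seen.

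Methylation loci were denser in the MHC than along the rest of the chromosome. The window held 149 loci per Mb against 89.5 on the rest of chromosome 17 and 68.9 over all chromosomes, and the loci covered 20.0% of its bases against 9.75% and 7.49%. Stretches of equal length next to the window held 228 loci before it and 98 after it. The median MHC locus was 995 bp wide, against 916 bp over all loci, held 2.03 CpGs per 100 bp against 1.82, and had a level of 2.83 CPM per kb against 2.72. Of the 342 loci, 52.9% overlapped a coding exon, 9 an untranslated exon and 5 another exon of a protein-coding gene, 34 lay in introns, 38 in genes of other types and 75 between genes. The levels of coding-exon loci (median 2.94 CPM per kb) were above those of loci between genes (2.65), as were their CpG densities (2.29 against 1.66 per 100 bp).

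Along the chromosome the loci were grouped by the genes that bound the classical blocks. The K region, up to H2-Oa, held 33 loci and covered the largest share of its bases (27%), with 25 of the loci in coding exons. The class II region, from H2-Oa up to Notch4, held 57 loci and the lowest share of covered bases (15.3%). The class III region, from Notch4 up to H2-D1, held 127 loci at 181.8 per Mb, the highest density of the 6 blocks, 82 of them in coding exons. The D and Q region (31 loci) and the T region (23 loci) hold the duplicated class I genes, with the framework region (71 loci) between them. A copy elsewhere in the assembly, counted at 95% identity or more over at least 50% of the locus, was found for 14 loci of the D and Q region, 9 of the T region, 10 of the class III region, 6 of the class II region, 4 of the framework region and none of the K region, 43 in all. For 27 of these a copy lay inside the window itself. Counts at such loci may hold reads of more than 1 place, so their levels are uncertain.

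**Figure D1:**
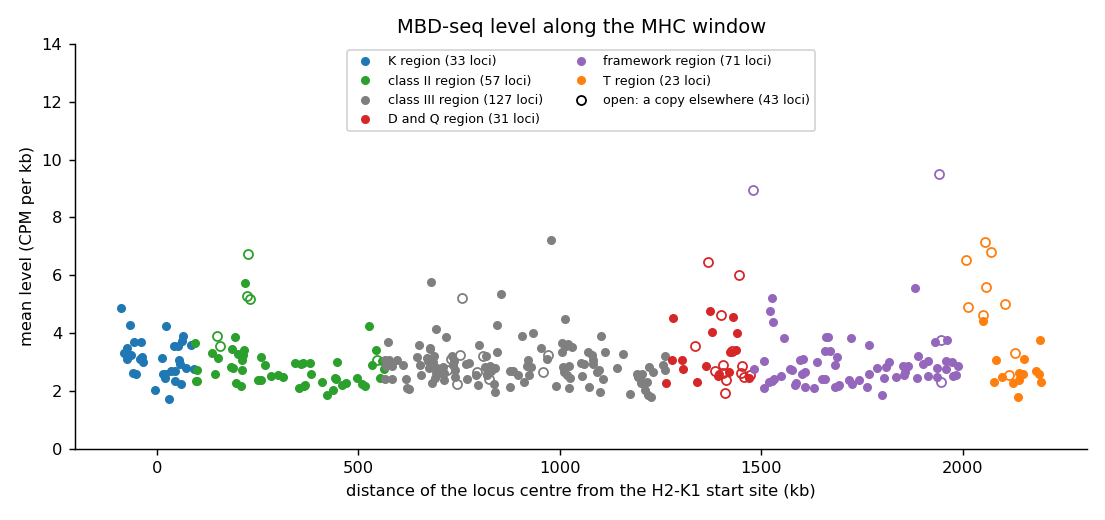
Mean level of each of the 342 loci in CPM per kb (y axis) against the distance of its centre from the start site of H2-K1 in kb (x axis), over 46 libraries, coloured by block, with open circles for the 43 loci that have a copy elsewhere. Most loci lie between 2 and 4 CPM per kb, and the peaks above 6 are mainly open circles in the class II, D and Q, framework and T regions.

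The strongest captured loci of the MHC were mostly repeats. The highest level, 9.52 CPM per kb, was at a locus between genes in the framework region (chr17:35940920-35943281, 8637 bp from Ppp1r10, a regulator of protein phosphatase 1), of which 88.8% was repeat-masked. Of the 10 loci with the highest level, 7 were more than 50% masked and 8 had a copy elsewhere. The widest locus (chr17:36067153-36075075, 7923 bp, in the pseudogene-type gene Gm8810 of the T region) had 93 such copies and a level of 6.82 CPM per kb. In the class II region the top locus lay 9033 bp from Tap2 (chr17:34225354-34228657, 6.75 CPM per kb, 61 copies), in the D and Q region 9436 bp from H2-Q4 (chr17:35366674-35370181, 6.46 CPM per kb) and in the T region at Gm6034 and Gm11127 (chr17:36053294-36056468, 7.15 CPM per kb). The exceptions without a copy were the Hspa1l locus (chr17:34976530-34979178, 7.23 CPM per kb), in the coding exon of a testis-enriched member of the HSP70 chaperone family, and a locus in an intron of Tnxb, the gene for the matrix protein tenascin-X (chr17:34679620-34680930, 5.78 CPM per kb). In the K region the highest level was 4.86 CPM per kb, at the coding sequence of Daxx, a histone chaperone (chr17:33910910-33912659). The lowest level of all was 1.73 CPM per kb, at Slc39a7, a zinc transporter (chr17:34029668-34030461).

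Level rose with CpG density, with a pair of exceptions. Spearman's rho between CpGs per 100 bp and CPM per kb was 0.421 over the 342 MHC loci and 0.449 over all loci, where points share the same libraries and neighbouring loci are not independent. Within the blocks rho ranged from 0.242 in the K region to 0.619 in the framework region. The most CpG-dense loci were those in the coding sequences of Hspa1b (10.7 CpGs per 100 bp, chr17:34957308-34958579) and Hspa1a (8.86 per 100 bp, chr17:34969872-34971552), the stress-inducible HSP70 genes, but their levels were only 2.66 and 3.24 CPM per kb. These genes are near-identical copies of each other, so the split of reads between them is uncertain. Their neighbour Hspa1l, with 4.45 CpGs per 100 bp, had more than both together. At the other end, 1 locus held no CpG at all in the reference (chr17:36135560-36136245, 1.80 CPM per kb).

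**Figure D2:**
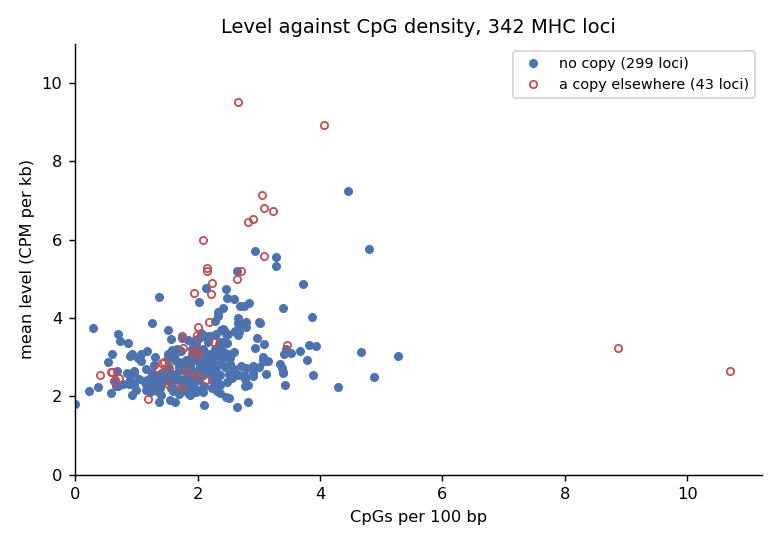
Mean level in CPM per kb (y axis) against CpGs per 100 bp (x axis) for the 342 loci, filled without and open with a copy elsewhere. Levels climb with CpG density up to about the density of Hspa1l, and the open circles far to the right are Hspa1a and Hspa1b with 8.86 and 10.7 CpGs per 100 bp.

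Few gene starts in the MHC overlapped a locus, and none of those richest in CpGs did. RefSeq gives 174 promoters (250 bases before to 50 after a start) in the window, and 14 of them (8.05%) overlapped a locus, against 10.46% of 32677 promoters elsewhere. None of the 76 promoters with 15 or more CG dinucleotides overlapped a locus (2.74% elsewhere). These included the starts of H2-K1 and H2-D1, of Tap1 and Psmb9 (the peptide transporter and immunoproteasome genes that share a start region), of Brd2, Daxx, Ring1, Ehmt2 and other chromatin genes. Promoters with 5 to 14 CpGs overlapped a locus in 8 of 64 cases (12.5%, against 21.6% elsewhere) and those with 0 to 4 in 6 of 34 (17.6%, against 9.48%). Some genes, such as Daxx and Vps52, count more than once through starts that overlap each other, so promoters are not separate genes. Whether the shares in the window differ from those elsewhere was not tested. The starts with a locus belonged to Pou5f1, Lta, Ltb (the partner chain of lymphotoxin), H2-Q6 and H2-T3 (non-classical class I genes), Notch4 (a Notch receptor of endothelium), Tnxb, Btnl6 and the Ly6 family genes Ly6g6d and Ly6g5c, and to BC051537, Gm32362, Gm11127 and Gm7030. Pou5f1 and Ly6g6d also had starts without a locus. The longest stretch without a locus, 35.85 kb (chr17:34100551-34136404), held the whole of Brd2, a bromodomain reader of acetylated histones that is broadly expressed, whereas neighbouring loci were otherwise a median of 2565 bp apart.

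Of the listed class I genes with an H2 name in the annotation, 10 of 18 had a locus in the gene or in the 2 kb before it, 18 loci in all. Genes under other names, such as Gm11127 and Gm7030 of the T region, were not in the list. The classical gene H2-K1 and H2-K2, H2-Q1, H2-Q3, H2-T10, H2-T22, H2-T23 and H2-T-ps had none, while H2-D1, H2-Q2, H2-Q4, H2-Q5, H2-Q6, H2-Q7, H2-Q10, H2-Bl, H2-T3 and H2-T24 had 1 to 3 each. The listed class I locus of highest level was the one at H2-T24 (chr17:36006756-36010225, 6.54 CPM per kb), 91.6% repeat-masked and with 72 copies. Class II genes had 14 loci at 9 of 11 genes, with levels of 2.36 to 3.89 CPM per kb, highest at H2-DMb2, a chain of the peptide exchange factor DM. All 5 antigen processing genes (Tap1, Tap2, Tapbp, Psmb8 and Psmb9) had loci, 14 in all. Of the complement genes C2, C4a and C4b had 17 loci at levels of 2.13 to 3.22 CPM per kb, and Cfb had none. The cytokine list had the lowest median level of the lists, 2.47 CPM per kb over 9 loci. It held the cytokine genes Tnf, Lta and Ltb, and also Aif1 and Nfkbil1, which are not cytokines, and Lst1, which had no locus. The heat shock and chaperone genes had 6 loci with a median of 4.06 CpGs per 100 bp. Genes of transcription and chromatin had 35 loci at 14 of 15 genes, Notch4 alone 9. Tnxb carried 18 loci, more than any other gene listed, and Col11a2, a collagen chain, 9. For the neuronal and synaptic list 11 loci were found at Tubb5, Ddr1, Atat1 and Abhd16a, 5 of them at Ddr1, and none at Flot1 or Atp6v1g2. Whether the genes of this list are expressed chiefly in neurons was not examined.

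Depth and libraries limit what the groups can show. Over the 48 libraries the total was 7.72 to 14.1 Mcounts (counts in units of 1000000). The study left out 2 Tph2-/- MS libraries, and those of lowest total in that group (replicates 3 and 7) were left out here, which leaves 6 in that group and 46 in the fits. In these, the MHC loci held 11736 to 26615 counts per library and 11.2 to 594 counts per locus on average. The spread between mice of a group, as a coefficient of variation (CV), had a median of 27.6% over the 342 loci and of 19.4% over the 101 loci that averaged at least 50 counts. Among the latter it was highest, 45.5%, at the Tnxb intron locus named above. The libraries of C mice carry the sample numbers S1 to S17 and S42 to S48, those of MS mice S18 to S41, so that sample number and MS cannot be told apart, and no comparison of MS with C within 1 run of numbers was possible.

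The summed level of the 342 loci was highest in Tph2-/- MS mice and rested on a few libraries. The lowest, median and highest sums were 1507, 1564 and 1626 CPM for Tph2+/+ C, 1532, 1634 and 1751 for Tph2+/+ MS, 1507, 1576 and 1622 for Tph2+/- C, 1548, 1587 and 1819 for Tph2+/- MS, 1559, 1583 and 1684 for Tph2-/- C, and 1549, 1653 and 2178 for Tph2-/- MS. The means were 1567 ± 48.2 (SD, n = 8), 1627 ± 70.02 (n = 8), 1578 ± 36.1 (n = 8), 1624 ± 86.9 (n = 8), 1597 ± 37.6 (n = 8) and 1736 ± 235 (n = 6) in the same order. All groups overlapped. Scaled by total counts in place of TMM, the order of the Tph2+/+ groups was the opposite, with means of 1654 CPM for C and 1577 CPM for MS, and the highest Tph2-/- MS library fell from 2178 to 1741 CPM. The 8 libraries used of those numbered S18 to S26 (S20 is a left-out library) ranged from 1590 to 2178 CPM with a median of 1722, and the other 14 MS libraries, S27 to S41, from 1532 to 1653 with a median of 1578, within the range of the controls. The same libraries also stood apart by CpG density. The ratio of the sum over the 86 most CpG-dense loci to that over the 86 least CpG-dense loci had a median of 3.31 in S18 to S26, 2.81 in S27 to S41, 2.86 in S1 to S17 and 2.65 in S42 to S48. The highest ratio among the libraries used, 4.67, was that of Tph2-/- MS replicate 2. The part of these libraries in the MS differences below was not tested beyond the values given without them. Without S18 to S26 the MS groups keep 5 Tph2+/+, 6 Tph2+/- and 3 Tph2-/- libraries. Such fits can detect less, so a locus may stop passing there without a smaller difference. No label marks a break between S26 and S27.

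**Figure D3:**
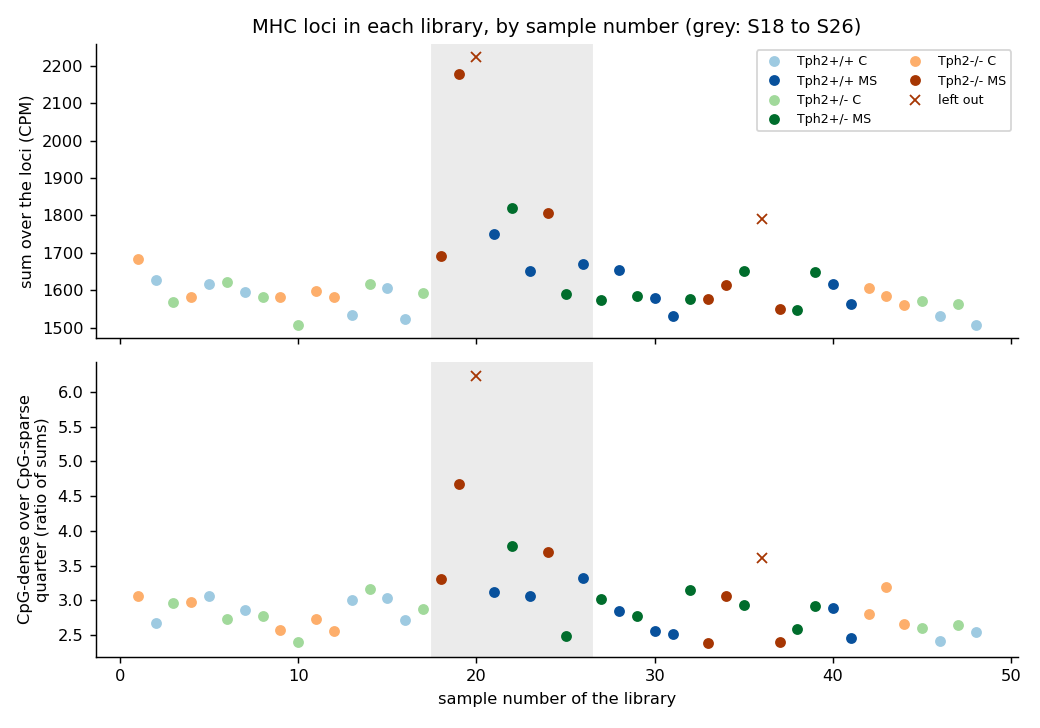
Upper panel, sum over the 342 loci in CPM (y axis) and lower panel, ratio of the sums over the 86 most and the 86 least CpG-dense loci (y axis), for each library against its sample number (x axis), coloured by group, with crosses for the 2 left-out libraries and grey for S18 to S26. Among the libraries used, the highest sum (2178 CPM) and the highest ratio (4.67) fall in the grey band, while S27 to S41 lie among the controls.

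Whether MS changed methylation was asked first over the 3 genotypes. Of the 342 loci, 7 (2.05%) met the limits used by the study (p below 0.01 before adjustment, log2 fold change above 0.2 or below -0.2), and all were higher in MS. Over all loci tested, 3.63% passed, 2.28% higher and 1.35% lower, so the MHC share was below the background and its higher share near it. After Benjamini-Hochberg adjustment the edgeR quasi-likelihood test called 0 MHC loci at 0.05 (background 0.0128%), with a smallest adjusted p of 0.134. At an unadjusted p under 0.05 it had 33 MHC loci (9.65%), a share below the 12.2% of all loci. DESeq2 without a fold-change prior had 3 of the 342 MHC loci under an adjusted p of 0.05, the smallest at 0.0326, beside 1226 of all 187695 loci. Nothing particular to the MHC is read from this count. DESeq2 was not run without the libraries S18 to S26, so the part of these libraries in it was not tested. The 5 called loci of smallest p lay at Rgl2 (an exchange factor of Ral GTPases), Col11a2, Hspa1l, Cchcr1 (a coiled-coil protein) and 3148 bp from the class I gene H2-Bl. The other 2 loci, named after their values were seen, were at Zbtb22 (a zinc finger gene whose locus also overlaps the annotation of Tapbp, the peptide-loading factor tapasin) and at Psmb9.

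Stretches from the loci with the largest counts among the calls are shown with those from the most CpG-poor ones, since both kinds passed the limits. Each is the 200 bases of the locus with the most CpGs outside untranslated exons, on the plus strand of GRCm38, CpGs in capitals.
Rgl2 (chr17:33932529-33932728): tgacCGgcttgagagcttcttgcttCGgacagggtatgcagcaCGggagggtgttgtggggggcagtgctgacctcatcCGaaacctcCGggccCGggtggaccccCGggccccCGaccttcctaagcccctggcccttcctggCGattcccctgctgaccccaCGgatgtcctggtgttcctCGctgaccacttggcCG
Hspa1l (chr17:34977517-34977716): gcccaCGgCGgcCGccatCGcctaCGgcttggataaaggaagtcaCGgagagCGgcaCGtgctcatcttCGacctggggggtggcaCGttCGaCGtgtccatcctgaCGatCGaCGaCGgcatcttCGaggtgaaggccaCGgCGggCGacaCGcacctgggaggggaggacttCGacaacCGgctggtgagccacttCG
Sfta2 intron (chr17:35608206-35608405): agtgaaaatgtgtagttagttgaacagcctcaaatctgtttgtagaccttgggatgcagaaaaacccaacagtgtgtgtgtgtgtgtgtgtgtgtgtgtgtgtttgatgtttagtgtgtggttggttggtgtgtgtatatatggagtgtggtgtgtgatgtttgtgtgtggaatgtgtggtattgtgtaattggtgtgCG
H2-Q10 (chr17:35472317-35472516): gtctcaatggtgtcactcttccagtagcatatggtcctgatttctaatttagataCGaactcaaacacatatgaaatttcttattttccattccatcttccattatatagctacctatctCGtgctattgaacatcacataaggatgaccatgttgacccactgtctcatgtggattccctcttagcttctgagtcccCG
The Rgl2 and Hspa1l stretches held 12 and 24 CpGs, and the Sfta2 and H2-Q10 stretches 1 and 3. The whole Sfta2 locus (875 bp) held 2 CpGs and the whole H2-Q10 locus (733 bp) 3.

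The Rgl2 locus (chr17:33931740-33936199, coding exons, 210 counts on average) had the smallest p of the MHC for MS. Its lowest, median and highest levels were 15.2, 18.1 and 21.3 CPM for Tph2+/+ C, 13.96, 18.96 and 28.2 for Tph2+/+ MS, 15.2, 17.2 and 22.5 for Tph2+/- C, 15.6, 19.01 and 24.8 for Tph2+/- MS, 16.1, 16.9 and 18.7 for Tph2-/- C, and 17.1, 23.7 and 40.5 for Tph2-/- MS. In Tph2-/- mice 5 of 6 MS libraries were above all 8 C libraries, and in both other genotypes MS and C overlapped widely. The log2 fold change of MS over C was 0.27 with a standard error (SE) of 0.07 over genotypes (adjusted p = 0.134, edgeR) and 0.56 with an SE of 0.13 in Tph2-/- (adjusted p = 0.521, edgeR). Without S18 to S26 the differences were 0.10 and 0.28, and neither passed. With counts corrected for CpG density per library the difference was 0.18 over genotypes, which no longer passed, and 0.44 in Tph2-/-, which did.

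The Hspa1l locus had levels of 12.9, 16.4 and 19.5 CPM (lowest, median, highest) for Tph2+/+ C, 14.3, 18.3 and 31 for Tph2+/+ MS, 13.7, 17.7 and 23.1 for Tph2+/- C, 14.8, 18.8 and 30.2 for Tph2+/- MS, 14.4, 16.1 and 23.2 for Tph2-/- C, and 12.8, 22.4 and 45.3 for Tph2-/- MS. The highest library of each MS group was far above its median, and every MS group overlapped its C group. MS exceeded C by 0.35 on the log2 scale (SE 0.11, adjusted p = 0.186) over genotypes and by 0.59 (SE 0.19, adjusted p = 0.655) in Tph2-/-. The 8 libraries S18 to S26 had a median of 28.1 CPM at this locus and S27 to S41 one of 16.7, against 17 in S1 to S17 and 14.4 in S42 to S48. Without S18 to S26 the differences were 0.01 over genotypes and 0.02 in Tph2-/-. With the CpG correction they were 0.10, which no longer passed, and 0.27, which did. Late and early controls differed at this locus too, with a log2 fold change of -0.31, past the same limits.

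The other loci higher in MS over genotypes had log2 fold changes of 0.25 at Col11a2 (SE 0.07), 0.41 near H2-Bl (SE 0.14), 0.23 at Cchcr1 (SE 0.09), 0.24 at Zbtb22 (SE 0.09) and 0.26 at Psmb9 (SE 0.10). MS and C libraries overlapped at all 7, and at Psmb9, a catalytic subunit of the immunoproteasome, 17 of 22 MS libraries were above the median of the 24 C libraries (medians 4.47 and 3.78 CPM). None of the 7 passed without S18 to S26, where their differences were 0.01 to 0.25, and 2 of the 7 passed with the covariate for late sample numbers, at Rgl2 and near H2-Bl. Of all 342 loci 229 (67%) had a fold change above 0, against 50.4% of all loci, with a median of 0.045 against 0.002. Without S18 to S26, 180 were above 0 and the median was 0.008. By CpG density, 69 of the 86 densest loci (80.2%) and 44 of the 86 sparsest (51.2%) were above 0, and with the CpG correction 200 of 342 were.

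**Figure D4:**
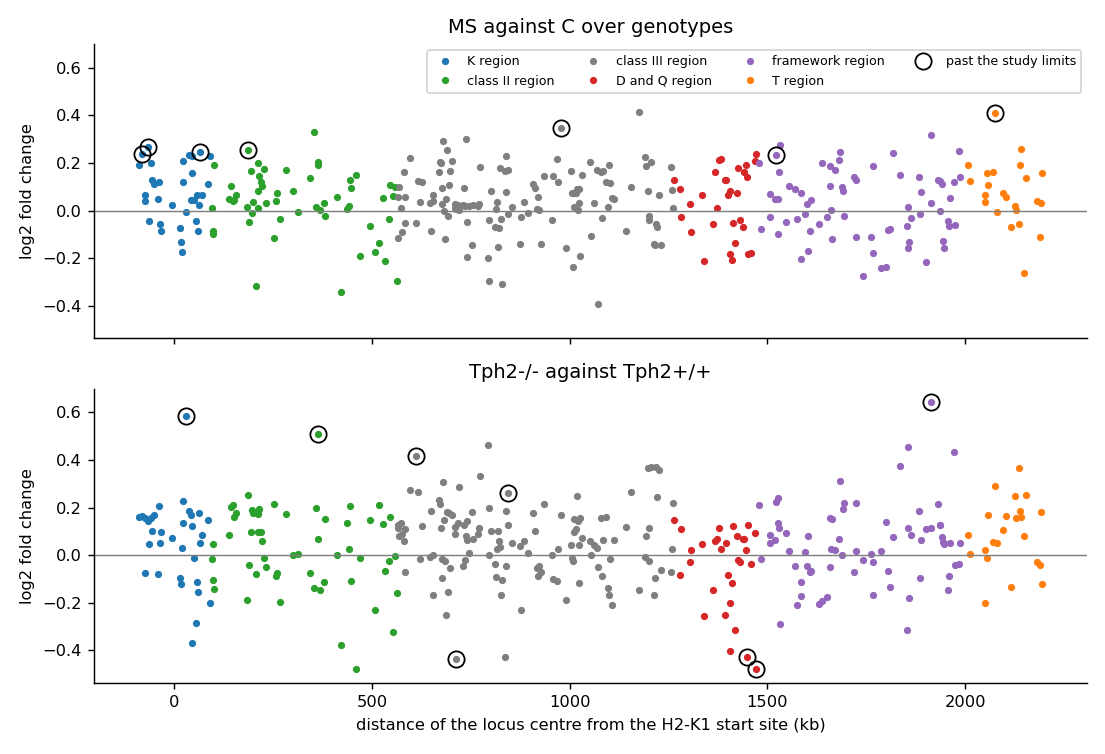
Log2 fold change of each MHC locus (y axis) against the distance of its centre from the start site of H2-K1 in kb (x axis), for MS against C over genotypes (upper) and Tph2-/- against Tph2+/+ (lower), coloured by block, with rings around the loci past the study's limits. The 7 ringed loci of the upper panel are all above 0, and of the 8 in the lower panel 5 are above and 3 below, 2 of the latter in the D and Q region.

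Within the genotypes different loci passed. In Tph2+/+ mice 3 MHC loci (0.877%, background 1.31%) passed: one 291 bp from Cchcr1 was higher in MS by 0.75 on the log2 scale (SE 0.27), one 2094 bp from Lst1, a leukocyte gene, was higher by 0.61 (SE 0.23), and one in an intron of Tnxa, a truncated relative of Tnxb, was lower, with a log2 fold change of -0.78 (SE 0.30). In Tph2+/- mice 4 loci (1.17%, background 0.779%) passed. A locus in an intron of Sfta2, a surfactant-associated gene (chr17:35607981-35608855), and one ending 41 bp before Notch4 were lower in MS, with log2 fold changes of -0.82 (SE 0.25) and -0.59 (SE 0.20), and loci at Ly6g5c and 544 bp from Btnl2 (a butyrophilin-like gene) were higher by 0.65 (SE 0.23) and 0.73 (SE 0.27). The Sfta2 intron is that of the GENCODE gene model. By RefSeq the Sfta2 promoter lies downstream of the locus, at chr17:35649458-35649757 on the plus strand, so the link to Sfta2 is uncertain. The locus near Btnl2 was also higher in late than in early controls, by 0.90 on the log2 scale, past the same limits. In Tph2-/- mice 3 loci (0.877%, background 1.48%) passed, at Rgl2, Hspa1l and Skiv2l, an RNA helicase that feeds the exosome, the last by 0.42 (SE 0.14). Without S18 to S26 the Sfta2 and Notch4 loci alone among these 10 still passed, at -0.76 and -0.56. With the late-number covariate 0 of the 3 Tph2+/+ loci, 4 of the 4 Tph2+/- loci and 1 of the 3 Tph2-/- loci, Rgl2, still passed. The edgeR test called 0 MHC loci at an adjusted p under 0.05 in each of the 3 genotypes (backgrounds 0.0%, 0.0% and 0.0%), as did DESeq2. At an unadjusted p under 0.05 edgeR had 16 MHC loci in Tph2+/+ (4.68%, against 6.52% of all loci), 12 in Tph2+/- (3.51% against 4.36%) and 25 in Tph2-/- (7.31% against 7.11%).

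The comparison of genotypes asked whether lifelong lack of brain serotonin went with other methylation. Averaged over C and MS, 8 MHC loci (2.34%) passed between Tph2-/- and Tph2+/+, against a background of 0.748%, with 5 higher in Tph2-/- (background 0.331%) and 3 lower (background 0.417%). These shares were above the background, but at an adjusted p under 0.05 both edgeR (background 0.0139%) and DESeq2 called 0 MHC loci. At an unadjusted p under 0.05 edgeR had 26 (7.6%, against 4.08% of all loci). At a locus in the coding sequence of Btnl2 (chr17:34362984-34363808), the Tph2+/+ medians were 1.87 CPM without and 1.98 CPM with MS, and the Tph2-/- medians 2.56 and 2.92 CPM. All 14 Tph2-/- libraries were above the median of the 16 Tph2+/+ libraries, with overlap, and the log2 fold change was 0.51 (SE 0.15). Tph2+/- mice lay between, at medians of 2.48 and 2.66 CPM. Loci at Agpat1, an enzyme of phosphatidic acid synthesis, Skiv2l, and an intron of Mrps18b, a mitochondrial ribosomal protein, were higher by 0.42 (SE 0.13), 0.26 (SE 0.10) and 0.64 (SE 0.19), and a coding locus of Tnxb was lower, with -0.43 (SE 0.16). The other 3 loci that passed, of which the one near H2-Q7 was named after its values were seen, were Slc39a7 (0.59, SE 0.22), the locus 5507 bp from H2-Q7 (-0.43, SE 0.16) and H2-Q10 (-0.48, SE 0.18). The H2-Q7 and H2-Q10 loci have copies inside the window, so their counts may hold reads of other class I genes. Without Tph2-/- MS replicate 2 (and with replicate 7 back in the fit) 4 MHC loci passed (1.17%, against 0.634% of all loci), without S18 to S26 3 (0.877% against 0.653%), and with the CpG correction 3 (0.877% against 0.697%). Only 2 of the 8 loci, at Btnl2 and Slc39a7, still passed without S18 to S26, where the differences at Agpat1, Skiv2l and Mrps18b were 0.25, 0.12 and 0.48. That fit kept 3 Tph2-/- MS libraries, so fewer mice were compared. Above 0 were 63.5% of the MHC loci, against 51.9% of all, and 53.8% without S18 to S26. By CpG density the share was 80.2% of the 86 densest and 52.3% of the 86 sparsest loci.

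Between Tph2+/- and Tph2+/+ 4 MHC loci (1.17%, background 0.546%) passed. The H2-Q10 locus (chr17:35471998-35472730) had lowest, median and highest levels of 1.51, 1.92 and 3.00 CPM for Tph2+/+ C, 1.23, 2.62 and 4.05 for Tph2+/+ MS, 0.96, 1.57 and 2.06 for Tph2+/- C, 0.70, 1.45 and 2.29 for Tph2+/- MS, 0.68, 1.28 and 3.23 for Tph2-/- C, and 1.24, 1.92 and 2.44 for Tph2-/- MS. Of 16 Tph2+/+ libraries 14 were above the median of the Tph2+/- libraries, with overlap, and the log2 fold change was -0.62 (SE 0.18). H2-Q10 encodes a class I molecule that the liver secretes, and the locus has 2 near-identical copies in the window. The Sfta2 intron locus was lower in Tph2+/- as well (-0.57, SE 0.17), and loci at Tubb5, a beta-tubulin, and Vps52, a tethering factor of vesicles at the Golgi, were higher by 0.51 (SE 0.17) and 0.27 (SE 0.10). At an adjusted p under 0.05 edgeR and DESeq2 both called 0 MHC loci (background 0.00213%), with 16 by edgeR at an unadjusted p under 0.05 (4.68%, against 3.47% of all loci).

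The last comparisons asked whether the difference between MS and C depended on genotype. GE1 is the MS difference in Tph2+/- minus that in Tph2+/+, and GE2 the same for Tph2-/-. For GE1 2 MHC loci (0.585%, background 0.626%) passed, and for GE2 1 (0.292%, background 0.558%). At an unadjusted p under 0.05 edgeR had 13 for GE1 (3.8%, against 3.71% of all loci) and 13 for GE2 (3.8% against 3.36%). At an adjusted p under 0.05 there were 0 with edgeR (backgrounds 0.0% and 0.0%) and with DESeq2. The Sfta2 intron locus had the smallest p (GE1 of -1.21, SE 0.34, adjusted p = 1.0, edgeR). Its levels were 0.96, 1.83 and 2.92 CPM (lowest, median, highest) for Tph2+/+ C, 1.82, 2.50 and 2.92 for Tph2+/+ MS, 1.03, 2.00 and 2.34 for Tph2+/- C, 0.67, 1.09 and 1.53 for Tph2+/- MS, 0.76, 1.80 and 3.63 for Tph2-/- C, and 1.71, 2.02 and 2.88 for Tph2-/- MS. Every Tph2+/- MS library was below every Tph2+/+ MS library, and 7 of 8 Tph2+/- C libraries were above all Tph2+/- MS libraries. This locus averaged 20.2 counts per library, and its calls passed under all 9 alternatives. The locus near Cchcr1 had a GE1 of -1.08 (SE 0.40), and a coding locus of Ddah2, an enzyme of arginine derivative breakdown, a GE2 of 0.71 (SE 0.26). Neither passed without S18 to S26, the former at -0.68 and the latter at 0.72, and neither passed with the replicate block.

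**Figure D5:**
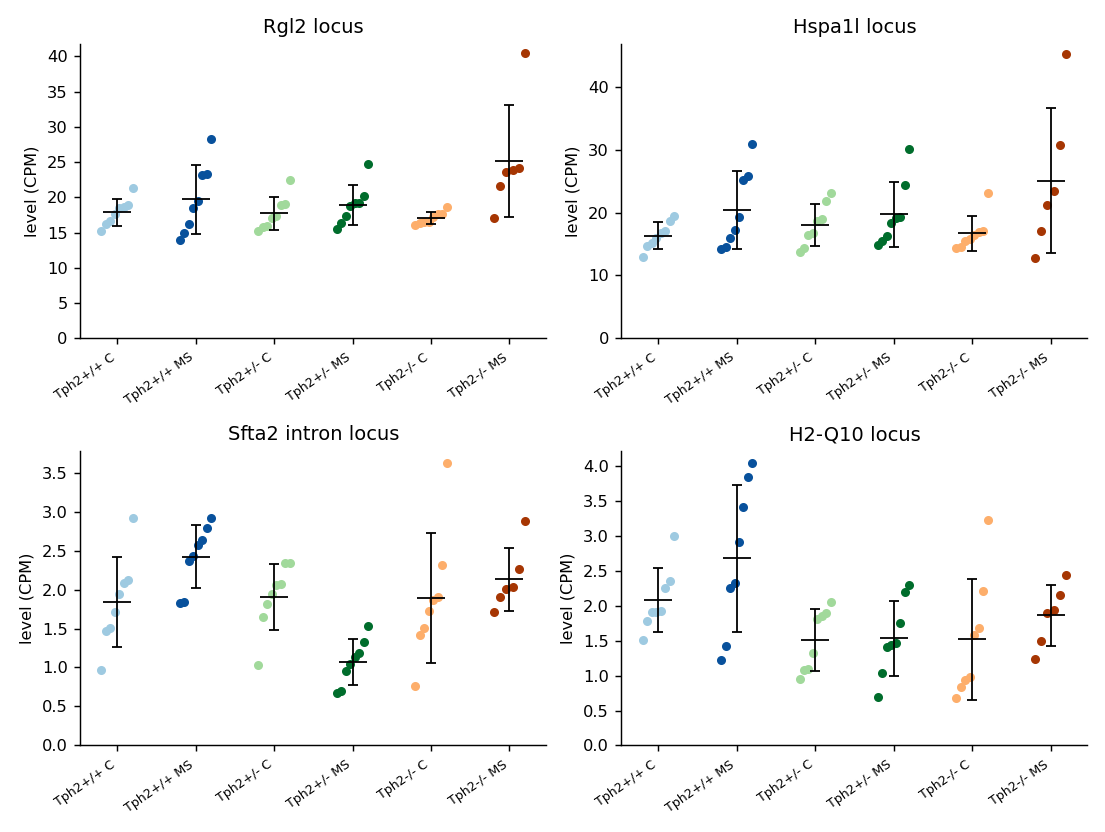
Level in CPM (y axis) of 4 loci in each library, sorted within the 6 groups (x axis), with the mean (bar) and SD (whiskers) of 8 libraries per group and 6 in Tph2-/- MS. At Rgl2 and Hspa1l 1 Tph2-/- MS library lies far above the rest (40.5 and 45.3 CPM), whereas at the Sfta2 intron Tph2+/- MS lies lowest as a group (0.67 to 1.53 CPM).

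By role, the called loci were few and spread over the lists. Neither the 14 class II loci, the 17 complement loci nor the 9 loci of the cytokine list had a member past the limits in any of the 8 comparisons. The background over all loci was 0.546% to 3.63%, so lists of this size hold few or no calls at that share and nothing is read from these counts. Of the 18 listed class I loci 1 passed in each of the genotype comparisons, at H2-Q10, and 2 of 14 antigen processing loci passed for MS over genotypes, at Psmb9 and at the locus shared by Zbtb22 and Tapbp. The median log2 fold changes for MS over genotypes were 0.13 for class I, 0.05 for class II, 0.05 for antigen processing, 0.01 for complement and 0.07 for the cytokine list. They were 0.13 for heat shock and chaperone genes, 0.04 for transcription and chromatin, 0.06 for steroid and matrix genes and 0.11 for the neuronal and synaptic list. The median was 0.045 over the whole MHC window (0.008 without S18 to S26) and 0.002 over all loci. Loci of a gene lie close together and share fragments, so they are not independent.

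Control libraries of different sample numbers differed at MHC loci as well. Between late (S42 to S48) and early (S1 to S17) controls, 8 MHC loci (2.34%) passed the same limits, against a background of 3.5%. In the late ones 3 were higher (background 1.33%) and 5 lower (background 2.16%). By edgeR there were 0 at an adjusted p under 0.05 (background 0.208%) and 33 (9.65%, against 10.3% of all loci) at an unadjusted p under 0.05. This comparison was not run with DESeq2. In it 38% of MHC loci had a fold change above 0, and of the 86 most CpG-dense loci 22 (25.6%).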

How the data were processed

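DNA of 48 mice was sequenced by the authors after MBD capture as pairs of 50 bp reads. According to the authors' methods and the processing notes, reads were mapped with Bowtie2 2.1.0 to GRCm38, peaks were called with MACS, and reads in merged peaks were counted with DiffBind 2.0.9. The deposited table holds these raw counts, 1 row per locus and 1 column per library, and all 48 columns matched a sample by its labels. The handling of duplicate and multiply mapped reads is not given in the sources used here, and a median of 60.1% of the nonzero MHC counts of a library were even, a sign that 1 fragment may add 2 counts, so a count is not always 1 molecule. Counts depend on CpG density, copy number and capture as well as on methylation.

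All 187695 loci were tested together with edgeR 4.0.16 in R 4.3.3 (TMM, trended dispersion, robust quasi-likelihood fit, 1 term per group, 46 libraries, no covariate), where the study used DESeq2, and adjusted p-values cover all loci. No low-count filter was applied and all 342 MHC loci were tested. Levels are TMM-normalised counts per 1000000 (CPM) without a pseudocount, for description only. Genes came from GENCODE vM21 and promoters from RefSeq, both on GRCm38, and copies were sought with minimap2 2.31. Window, blocks, gene lists and the rule for named loci were chosen with earlier results of these data known. The rule was up to 5 called loci of smallest p per comparison, the locus of highest level per block and per list, and the highest, the lowest and the widest locus. A simulation with real means and dispersions changed 200 of the loci by 1 on the log2 scale for MS over genotypes. The fit recovered 198 at an adjusted p under 0.05 with 15 false calls. At the study's limits it recovered 200, with 1869 false calls among the unchanged loci of the 187695. The simulated counts held no difference by sample number or CpG density, so false calls from such differences were not simulated. Smaller changes and interactions were not simulated. Libraries compared in 168 pairs within groups gave chi-square values from 2.05 to 12.6 when averaged by locus. Because a count is not always 1 molecule, sampling alone can raise these values. They cannot show whether every pair differed by more than sampling noise. Each library was 1 mouse, and litters are not labelled.

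Alternatives were DESeq2 1.42.0, its size factors, a low-count filter, all 48 libraries, 2 other sets of left-out libraries, an offset on CpG density, a block on replicate number and a late-number covariate. The comparison of late with early controls and the sums without S18 to S26 were added after seeing the data.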

Additional observations from a re-analysis of the deposited data

Results flagged for a closer look

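Of 90 sets of group values examined for a library far from the others (Dixon's ratio at the 95% level), 8 had one, where chance alone gives about 1 in 20. In Tph2+/- MS, replicate 1 had a sum over the MHC loci of 1819 CPM with the next library at 1651. In Tph2-/- C, replicate 1 had a sum of 1684 CPM with the next at 1605, and a level at Hspa1l of 23.2 CPM with the next at 17.1. In Tph2-/- MS, replicate 2 had 40.5 CPM at Rgl2 with the next at 24.1. In Tph2+/- C, replicate 7 had the lowest sum over the framework region, 252.6 CPM with the next at 275.2, and the highest over the T region, 236.5 CPM with the next at 201.4. At Psmb9 the highest libraries were Tph2+/+ C replicate 1 (4.88 CPM, next 3.94) and Tph2+/+ MS replicate 2 (6.78 CPM, next 4.69).

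The interaction of MS with genotype was past the study's limits, but not after adjustment (adjusted p of 1.0 in each case, edgeR), at the Sfta2 intron locus (GE1 of -1.21), the locus near Cchcr1 (GE1 of -1.08) and the Ddah2 locus (GE2 of 0.71). With S18 to S26 left out, the Sfta2 value was -1.18 and passed, and the values near Cchcr1 (-0.68) and at Ddah2 (0.72) did not pass. The last 2 did not pass with the replicate block either, nor did Ddah2 with the CpG correction. The 2 Tph2-/- MS libraries left out of the comparisons in the report had TMM-scaled sums over the MHC loci of 2222 CPM (replicate 3) and 1790 CPM (replicate 7), above the highest control library (1684 CPM). Scaled by total counts the direction was the opposite, with 1268 CPM, the lowest of the 48 libraries, and 1620 CPM against 1802 CPM in the highest control library.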

How the results depend on the processing

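Counts of MHC loci past the study's limits moved within 1.5 times of the value given in all 8 comparisons with DESeq2, its size factors, the low-count filter and the covariate for late numbers. Counts do not show which loci passed: with that covariate 22 of the 32 called pairs of locus and comparison still passed, 2 of the 7 for MS over genotypes. For MS over genotypes (7) the count was 13 with all 48 libraries (3.8%, against 5.79% of all loci). It was 3 without Tph2-/- MS replicates 2 and 3 in place of the pair of lowest total (0.877% against 2.58%), and 1 without S18 to S26 (0.292% against 1.26%). Without S18 to S26 the count was 1 for MS in Tph2+/+ (0.292%, against 0.977% of all loci) and 2 for MS in Tph2+/- (0.585% against 0.848%). It was 3 for Tph2-/- against Tph2+/+ (0.877% against 0.653%) and 3 for GE2 (0.877% against 0.855%), the latter without the Ddah2 locus. For MS in Tph2-/- it was 10 with all 48 libraries (2.92%, against 5.37% of all loci). Without Tph2-/- MS replicates 2 and 3 it was 4 for Tph2-/- against Tph2+/+ (1.17%, against 0.634% of all loci) and 2 for GE2 (0.585% against 0.6%). With the CpG offset it was 3 for Tph2-/- against Tph2+/+ (0.877%, against 0.697% of all loci) and 4 for GE1 (1.17% against 0.703%). The cause of these shifts was not tested.

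With the replicate block the count for Tph2-/- against Tph2+/+ was 5 (1.46%, against 0.722% of all loci) and that for GE2 was 0 (against 0.541%), and the others stayed within 1.5 times. Deviations of libraries with the same replicate number had a mean correlation of 0.0157, over 0.1 in 11 of 110 pairs. For other replicate numbers it was -0.0021, over 0.1 in 50 of 770 pairs. Whether equal numbers mark a shared litter or batch is not labelled and was not tested. Scaled by total counts in place of TMM, the mean summed level was 1654 CPM in both Tph2+/+ C and Tph2-/- C (1653.99 in the latter), more than 1 SD above the values given, and 1577 CPM in Tph2+/+ MS, so that the direction in Tph2+/+ was the opposite of that with TMM. Of the 32 called pairs, 7 passed under all 9 alternatives and none changed direction. With S18 to S26 left out, 8 passed. Loci averaged 11.2 to 594 counts, and differences smaller than the simulated 1 on the log2 scale were not tested for detection.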
